A study of Homo sapiens with 4 samples.

Results

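SNAI1, SNAI2, SNAI3, ZEB1, ZEB2, TWIST1 and TWIST2 encode the DNA-binding proteins best known for driving the epithelial-mesenchymal transition, in which epithelial cells lose their cell-cell junctions and take on a mesenchymal, motile state. The rows of these 7 genes were taken by gene symbol from a count table of 21372 genes, and all 7 had a row. They were measured in NCI-H1299, an established human cell line labelled lung adenocarcinoma, which was grown in RPMI1640 medium with fetal bovine serum and for which no further treatment is labelled. The samples were 2 libraries of RNA recovered with P5CS (P5CS IP) and 2 libraries of input RNA. P5CS, the product of ALDH18A1, makes the precursor of proline in mitochondria, and the study asks which RNAs associate with it. In RNA immunoprecipitation sequencing (RIP-seq) a protein is pulled down with the RNA attached to it, and a gene called higher below had a larger share of the recovered RNA than of the starting RNA. No IgG or mock precipitate was analysed here, all values come from 1 cell line, and no label says whether libraries of the same group stem from separate cultures, so the p-values reflect only how these libraries vary, a spread that may be technical.

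The SNAIL proteins (SNAI1, SNAI2 and SNAI3) and the ZEB proteins (ZEB1 and ZEB2) bind E-box DNA through zinc fingers and repress epithelial genes such as CDH1, which encodes E-cadherin. TWIST1 and TWIST2 are basic helix-loop-helix proteins that bind E-boxes as dimers, often with the E proteins TCF3, TCF4 and TCF12. ZEB1 and ZEB2 mRNAs are the classic targets of the miR-200 family, and SNAI1 protein is short-lived because kinases and ubiquitin ligases mark it for breakdown.

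The libraries held 31489455 to 46339235 counts, and a floor of 3 counts corresponded to 0.0647 to 0.0953 CPM (counts scaled to library size). CPM values below are on library sizes scaled by trimmed mean of M values (TMM), and SDs are over n = 2 libraries. The input RNA carried the mesenchymal marker VIM at 4355 ± 20.0 CPM and the simple-epithelium keratin KRT18 at 523.2 ± 14.3 CPM. EPCAM had 0 counts in both IP libraries and 8 and 6 in the inputs, and NKX2-1, the transcription factor that marks lung adenocarcinoma, ran from 0 to 1.51 CPM over the 4 libraries. NKX2-1 was the 1 lung marker of 4 listed that had a row, so the labelled tissue was checked against that gene alone. SFTPB, SFTPC, NAPSA and CDH1 were not analysed here. The summed level of the analysed markers was 0.104 to 0.191 CPM for leukocytes, 0.716 to 1.31 CPM for endothelium and 0.466 to 1.01 CPM for fibroblasts. Of the listed markers, 1 of 3 for leukocytes, 2 of 2 for endothelium and 2 of 3 for fibroblasts had a row. The leukocyte value thus rests on 1 gene near the floor. In bulk RNA of a cell line, fewer cells holding a transcript and less of it per cell cannot be told apart.

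The 7 genes did not behave alike in the P5CS IP. SNAI3, ZEB2 and TWIST1 were higher in the IP than in the input, TWIST2 was higher in value without passing the test, ZEB1 stood close to its input level, and SNAI1 and SNAI2 were barely measured in any library. A filter on low counts kept 17304 genes and 6 of the 7, leaving out SNAI2. Of those 6, 3 were called higher and 0 lower at an adjusted p under 0.05 (edgeR quasi-likelihood test, Benjamini-Hochberg over all genes tested). None was lower at an unadjusted p under 0.05 either, in edgeR's test across all genes, and DESeq2 also called 3 higher and 0 lower. Among all genes tested, 25.4% were called higher and 25.6% lower by the same rule. In 4 of the 6, SNAI3, ZEB2, TWIST1 and TWIST2, both IP libraries lay above both inputs in CPM, as they did in 37.7% of all genes tested, and in 0 of the 6 both IP libraries lay below both inputs, against 38.2%. The median log2 fold change of the 6 was 0.92, against -0.01 for all genes tested. Without TMM scaling the median of all genes moved to 0.25, and the log2 fold changes of ZEB1 and TWIST2, for example, moved up from -0.25 to 0.019 and from 0.78 to 1.05.

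**Figure D1:**
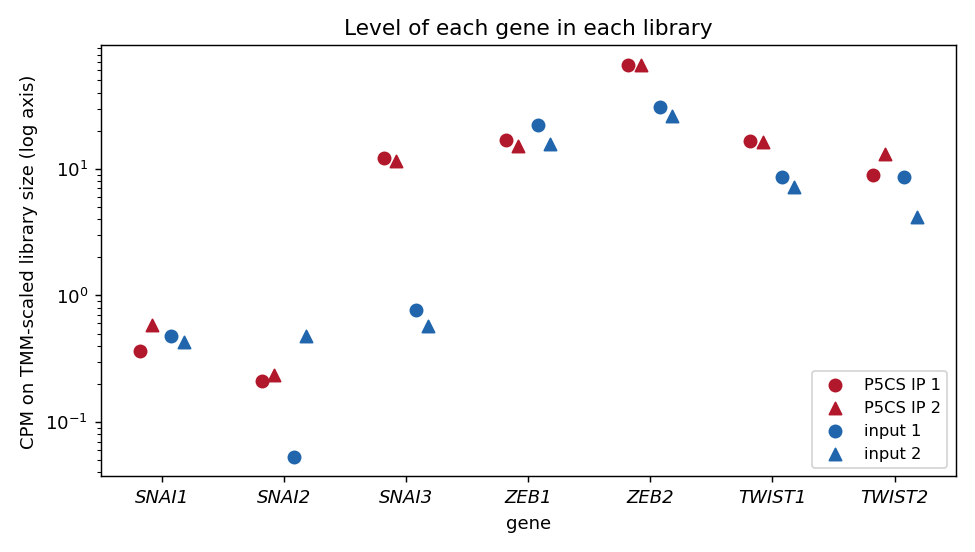
CPM of each gene (log axis, TMM-scaled) in the 4 libraries, red for P5CS IP, blue for input, circles for library 1 and triangles for library 2. The red points of SNAI3, ZEB2 and TWIST1 lie above the blue ones, those of TWIST2 come close to them, at 8.93 and 8.56 CPM, and those of ZEB1 fall among and below them.

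SNAI3, the least studied SNAIL-family repressor, differed most. It had 470 and 400 counts in the IP libraries and 29 and 24 counts in the inputs. Both IP libraries were high and both inputs low, with no overlap. In CPM it rose from 0.672 ± 0.140 in the input to 12.0 ± 0.448 in the IP (SD, n = 2 each). The difference was 17.8-fold, a log2 fold change of 4.15 (SE 0.296, 95% interval 3.51 to 4.82, edgeR quasi-likelihood adjusted p = 7.58e-07). Only 135 of the 17304 genes tested (0.780%) had a log2 fold change of this size or more, SNAI3 included. In the authors' deposited table its log2 fold change was 4.18 with an adjusted p of 2.41e-27.

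The SNAI3 gene lies on chromosome 16 from 88677688 to 88686507 (GRCh38.p14), and 100% of that span falls inside SNAI3-AS1, a non-coding antisense gene that runs from 88663373 to 88687186. Whether counting used strand is not given here, so reads of SNAI3 and of SNAI3-AS1 over shared sequence cannot be told apart. SNAI3-AS1 was itself higher in the IP, at 16.2 and 17.2 CPM against 2.45 and 3.48 CPM in the inputs (log2 fold change 2.49, SE 0.233, adjusted p = 6.05e-06, same edgeR test). The ratio of SNAI3 to SNAI3-AS1 in the deposited FPKM (counts scaled to gene length and library total) was 1.81 and 1.63 in the IP libraries and 0.756 and 0.394 in the inputs. The ratios of the groups did not overlap, and with 2 libraries against 2 the exact two-sided permutation test cannot go below p = 0.333, the value it gave. The part of reads from the antisense transcript in the SNAI3 counts was not tested.

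Start-site sequences were looked up for the antisense pairs, because they show where the paired transcripts begin, and are credited to RefSeq on GRCh38.p14 (250 bases before to 50 after an annotated start). Of the 7 genes, ZEB1, ZEB2 and TWIST2 had such a window, and SNAI1, SNAI2, SNAI3 and TWIST1 had none. The window of SNAI3-AS1, chr16:88663123-88663422 on the plus strand, lies outside the SNAI3 span. For ZEB1, with 7 windows listed, and ZEB1-AS1, the pair of windows that shares most bases was taken. That ZEB1 window, chr10:31318966-31319265 on the plus strand, shares 220 bases with the minus-strand window of ZEB1-AS1 at chr10:31319046-31319345. In this chosen pair the annotated sense and antisense starts lie beside each other, which is not said of the other starts. The window of ZEB2, chr2:144520070-144520369 on the minus strand, is shown for comparison. Capitals mark the E-box CAGGTG and its reverse complement CACCTG, the letters SNAIL and ZEB proteins are known to bind, and the search for both covers both strands.
SNAI3-AS1: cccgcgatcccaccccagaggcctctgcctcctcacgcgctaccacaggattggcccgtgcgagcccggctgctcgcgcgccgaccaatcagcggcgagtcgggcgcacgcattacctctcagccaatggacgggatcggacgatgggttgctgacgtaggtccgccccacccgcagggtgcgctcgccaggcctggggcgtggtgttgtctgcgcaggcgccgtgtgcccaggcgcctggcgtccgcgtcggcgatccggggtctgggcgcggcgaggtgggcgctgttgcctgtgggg
ZEB1: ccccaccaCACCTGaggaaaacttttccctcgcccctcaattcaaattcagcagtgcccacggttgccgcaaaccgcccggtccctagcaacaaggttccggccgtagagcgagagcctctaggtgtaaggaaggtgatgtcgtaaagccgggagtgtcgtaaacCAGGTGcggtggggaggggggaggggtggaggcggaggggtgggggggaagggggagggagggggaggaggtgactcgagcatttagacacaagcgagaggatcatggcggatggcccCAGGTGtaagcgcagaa
ZEB2: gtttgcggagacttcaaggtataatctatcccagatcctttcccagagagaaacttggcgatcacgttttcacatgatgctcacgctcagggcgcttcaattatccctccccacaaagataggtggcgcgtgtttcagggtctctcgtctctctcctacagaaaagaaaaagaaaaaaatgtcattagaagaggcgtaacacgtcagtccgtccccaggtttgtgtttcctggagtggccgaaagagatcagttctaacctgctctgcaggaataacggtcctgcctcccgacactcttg
The ZEB1 window held 3 matches and the other printed windows held 0, while 20.6% of all 35116 listed windows held at least 1. The ZEB1 window was picked by its overlap with ZEB1-AS1, whereas the others were the first listed for their gene. Matches in the remaining ZEB1 windows are not given, so these counts compare single windows and not genes. A match describes the letters and is not a measured binding site.

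ZEB2, a zinc finger and homeobox repressor, was the most abundant of the 7 by CPM and was higher in the IP. It stood at 66.0 and 66.2 CPM in the IP libraries and at 30.6 and 26.4 CPM in the inputs. The IP libraries were nearly equal and both lay above the inputs. The fold was 2.32, a log2 fold change of 1.22 (SE 0.114, 95% interval 0.96 to 1.47, edgeR quasi-likelihood adjusted p = 6.27e-06). The gene spans chromosome 2 from 144384081 to 144520119, and its model of 13256 nt is the longest of the 7. Across the genes tested, longer gene models had higher fold changes (Spearman rho 0.27 over 17304 genes, which share the same 4 libraries), and once that length trend was taken out, with the replicate number as a block, ZEB2 stood at 0.81 and was still called.

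ZEB1, the paralogue of ZEB2 with the same domain plan, did not follow it. It stood at 17.0 and 15.1 CPM in the IP libraries and at 22.3 and 15.8 CPM in the inputs. The first IP library fell between the inputs and the second just below both. Its log2 fold change was -0.25 (SE 0.189, 95% interval -0.66 to 0.17, edgeR quasi-likelihood adjusted p = 0.314), an interval that leaves out a rise of the size of ZEB2. Its sign changed under total-count scaling (0.019) and when the first input library was left out (0.021), and without the length trend, in the block fit, ZEB1 was called lower (-0.45, adjusted p = 0.0393, same edgeR test).

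The ratio of ZEB2 to ZEB1 shows the contrast inside each library, free of any scaling between libraries. In deposited FPKM it was 1.76 and 1.998 in the IP libraries and 0.625 and 0.758 in the inputs. ZEB1 was thus the higher of the pair per length in both inputs and ZEB2 in both IP libraries. The exact two-sided permutation p was 0.333, the smallest that 2 against 2 allows. ZEB1 spans chromosome 10 from 31318417 to 31529804 and shares 2031 bases with its antisense neighbour ZEB1-AS1, and reads there cannot be told apart without strand. ZEB1-AS1 stood at 5.25 and 3.58 CPM in the IP libraries and 3.67 and 2.46 CPM in the inputs (log2 fold change 0.53, SE 0.355, adjusted p = 0.242, same edgeR test). ZEB2 shares 506 bases with ZEB2-AS1, which was not analysed here.

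**Figure D2:**
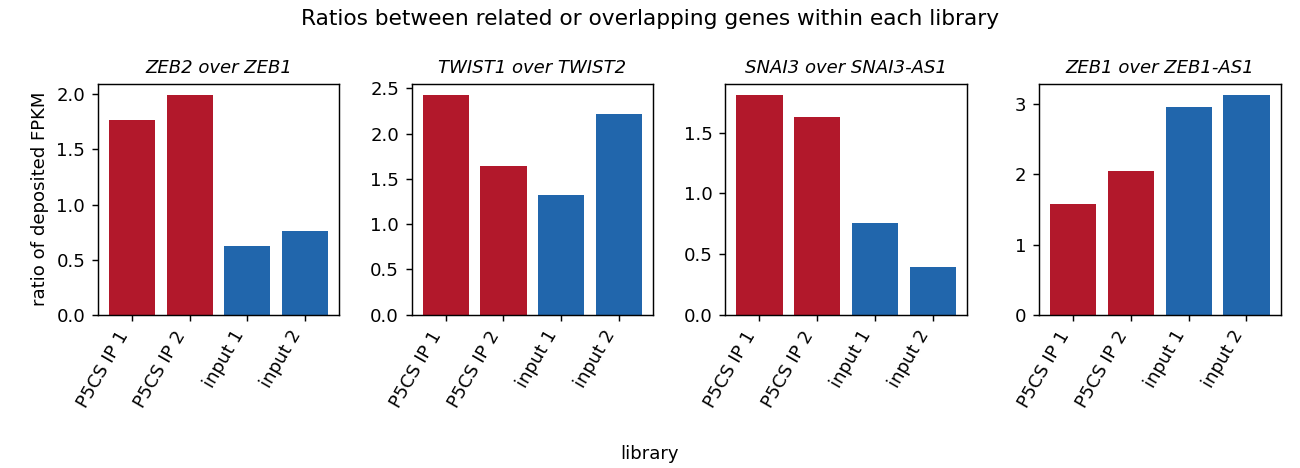
Ratios of deposited FPKM (linear axis from 0) within each library, red for P5CS IP and blue for input. ZEB2 over ZEB1 and SNAI3 over SNAI3-AS1 are higher in both IP libraries, ZEB1 over ZEB1-AS1 is lower in both, and TWIST1 over TWIST2 overlaps between the groups.

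TWIST1, a helix-loop-helix regulator of mesoderm and of mesenchymal state, was higher in the IP. It stood at 16.6 and 16.4 CPM in the IP libraries and at 8.67 and 7.13 CPM in the inputs, with no overlap and with the IP libraries close together. The fold was 2.09, a log2 fold change of 1.06 (SE 0.186, 95% interval 0.65 to 1.47, edgeR quasi-likelihood adjusted p = 0.000646). The gene is compact, on chromosome 7 from 19113047 to 19117636, with a model of 1630 nt, the shortest of the 7. With the length trend removed in the block fit it stood at 1.33.

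TWIST2, its close relative on chromosome 2 (238848085 to 238910534), lay at the threshold. It stood at 8.93 and 13.0 CPM in the IP libraries and at 8.56 and 4.199 CPM in the inputs. The first library of each group nearly met and the second libraries were far apart, so the spread within groups was wide. Its log2 fold change was 0.78 (SE 0.323, 95% interval 0.07 to 1.501) and missed the threshold (edgeR quasi-likelihood adjusted p = 0.0652). It passed in 7 of 11 alternatives. Over all 11, passed or not, its log2 fold change ran from 0.36 without the second input library to 1.38 without the first. It stood at 0.52 without the second IP library and at 1.04 without the first. In the authors' deposited table TWIST2 is marked as enriched with an adjusted p of 0.0636, because the mark rests on an unadjusted p under 0.05 and a fold above 1.5. The ratio of TWIST1 to TWIST2 in deposited FPKM was 2.43 and 1.64 in the IP libraries and 1.32 and 2.22 in the inputs. These ratios overlapped (exact two-sided permutation p = 0.667).

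The founding SNAIL members were near the limit of detection. SNAI1, the SNAIL repressor of CDH1, on chromosome 20 from 49982980 to 49988886, had 14 and 20 counts in the IP libraries and 18 in each input. Its log2 fold change of 0.06 had a 95% interval from -1.93 to 2.05 (SE 0.897, edgeR quasi-likelihood adjusted p = 0.965). At this depth a change of up to about that size in either direction is not excluded. Its sign turned without the second IP library (-0.28) and without the second input library (-0.015). SNAI2, known as SLUG, on chromosome 8 from 48917598 to 48921429, had 8 counts in each IP library and 2 and 20 in the inputs. The inputs alone spanned the IP values. No fold is given for SNAI2.

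**Figure D3:**
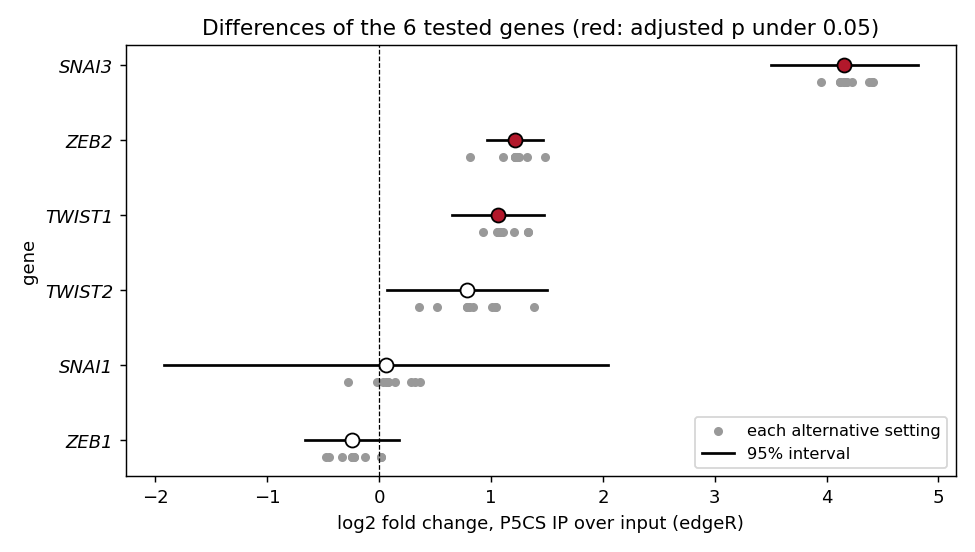
Log2 fold change of P5CS IP over input for the 6 tested genes (large points, red where the adjusted p was under 0.05), with 95% intervals (lines) and the values under each alternative setting (grey points). SNAI3 stands alone near 4.15, ZEB2 and TWIST1 near 1, the interval of TWIST2 begins at 0.07, and those of SNAI1 and ZEB1 span 0.

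Levels per length can be set against each other within a library through the deposited FPKM. In the input the order of group means was TWIST1 (4.42 ± 0.657), ZEB1 (2.89 ± 0.724), TWIST2 (2.74 ± 1.351), ZEB2 (1.96, from 2.12 and 1.80), SNAI3 (0.352 ± 0.0776), SNAI1 (0.243 ± 0.0214) and SNAI2 (0.110 ± 0.124). Neighbours from ZEB1 to ZEB2 and the pair SNAI1 and SNAI2 lay within their spread, whereas ZEB2 and SNAI3 were well separated. In the IP the order was TWIST1 (11.1 ± 0.202), SNAI3 (7.54 ± 0.337), TWIST2 (5.64 ± 1.44), ZEB2 (5.47 ± 0.0291), ZEB1 (2.92 ± 0.273), SNAI1 (0.304 ± 0.0962) and SNAI2 (0.111 ± 0.00768). TWIST1 led in both groups, SNAI3 moved from place 5 in the input to place 2 in the IP, and TWIST2 and ZEB2 did not differ beyond their spread in the IP. FPKM are scaled to total counts, so the change of 1 gene between groups is read from the edgeR fit and not from these levels.

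**Figure D4:**
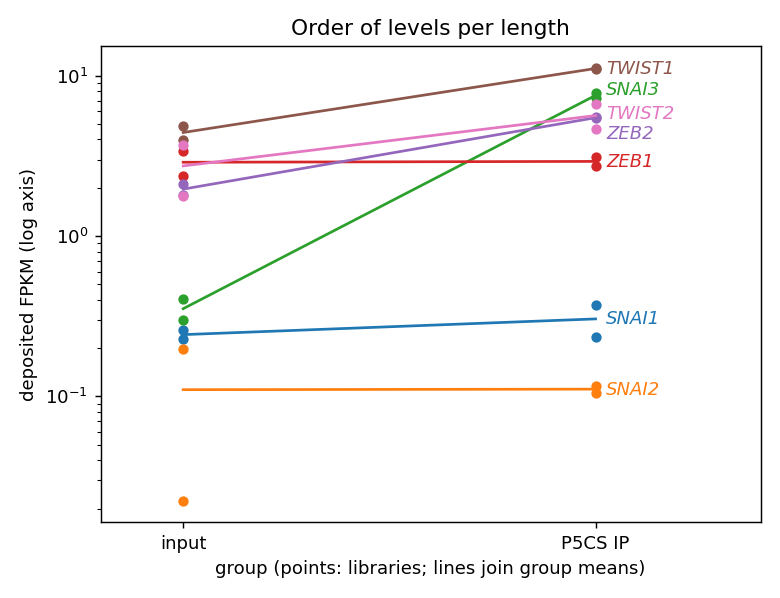
Deposited FPKM (log axis) of the 7 genes in input and P5CS IP. Points are libraries and lines join group means. The SNAI3 line crosses those of ZEB1, ZEB2 and TWIST2, and SNAI1 and SNAI2 stay at the bottom in both groups.

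Summed over the 7 genes, the IP libraries held 4650 and 4230 counts and the inputs 2687 and 2305, or 121.5 and 123.1 CPM against 71.4 and 55.0 CPM. ZEB2 supplied the largest part of the sum, 54.4% and 53.8% in the IP libraries and 42.9% and 47.9% in the inputs. These counts are not scaled to length, and the ZEB2 model of 13256 nt is the longest of the 7. SNAI3 supplied 10.1% and 9.46% in the IP libraries and 1.08% and 1.04% in the inputs. The share of ZEB1 was lower in the IP, at 14.0% and 12.2% against 31.2% and 28.8%. Such a share falls when other genes in the sum rise, and ZEB1 itself was not called (log2 fold change -0.25, adjusted p = 0.314, edgeR quasi-likelihood test).

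In the authors' deposited table SNAI3, ZEB2, TWIST1 and TWIST2 are marked as enriched, 4 of the 7, and 19.0% of all 21372 genes carry the mark. The deposited log2 fold changes of the other called genes were 1.24 for ZEB2 and 1.08 for TWIST1, with adjusted p of 2.28e-17 and 3.97e-05 in the authors' deposited table. ZEB1 (-0.22), SNAI1 (0.08) and SNAI2 (-0.25) are not marked there.

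For each tested member, the 2 genes most like it were found as those with the smallest Euclidean distance in log2 CPM over the 4 libraries. The fold changes come from the same 4 libraries, so their likeness to that of the member follows from this choice. For SNAI3 these were PCDHA13, a clustered protocadherin (distance 0.903), and the antisense gene SLC9A3-AS1 (1.02), with log2 fold changes of 3.67 and 3.24, so no gene lay close to it. For ZEB2 the nearest was ZXDC (0.145), a zinc finger gene, at 1.16. For ZEB1 they were SUDS3 (0.0504), a subunit of the SIN3 corepressor, and TMEM9B (0.0769), at -0.26 and -0.32. For TWIST1 they were the pseudogene CEP170P1 (0.121) and ZNF780B (0.167), at 0.95 and 0.92. For TWIST2 they were PROSER2 (0.223) and the kinase gene MARK1 (0.484), at 0.85 and 0.75. The calls of both were lost without the second IP library (0.70 and 0.43) and without the second input library (0.50 and 0.57). That of MARK1 was also lost with the length trend removed in the block fit (0.54, adjusted p = 0.108, edgeR quasi-likelihood test). For SNAI1 they were the pseudogene PCDHGB9P (0.343) and a gene named in the table by identifier alone, with as few counts. PCDHA13 and PCDHGB9P belong to clusters of similar genes that share exons, so reads may be split among them.

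The partners through which these proteins act were measured too, and were mixed. Of 24 corepressors, histone-modifying enzymes and dimer partners, all tested, 11 rose and 4 fell in the IP while 9 missed the threshold. Over all genes tested, 25.4% were called higher and 25.6% lower. With total-count scaling 14 of the 24 were called higher and 0 lower. Their median log2 fold change was 0.37, against -0.01 for all genes tested. CTBP1 and CTBP2, the corepressors that ZEB proteins recruit, were higher (0.93, SE 0.0948, and 0.65, SE 0.0995), though with the length trend removed, in the fit with the replicate block, they stood at 0.60 and 0.28. LIMD1, a LIM protein of the AJUBA family that works with SNAIL, was the highest called (2.13, SE 0.110), and EZH2, the Polycomb methyltransferase, the lowest (-0.60, SE 0.142, a call lost with total-count scaling at -0.34). KDM1A, the demethylase that SNAI1 recruits, stood at 0.15 (SE 0.123) and did not pass.

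The dimer partners of TWIST proteins split as well. TCF3 was higher (0.40, SE 0.0821), whereas TCF4 (0.02, SE 0.147) and TCF12 (-0.24, SE 0.0910, adjusted p = 0.0508, edgeR quasi-likelihood test) did not pass. TCF12 lay at the threshold and was called lower in 3 of 11 alternatives, with halved counts, with the replicate block and with the length trend removed (-0.47). ID1, which binds E proteins and keeps them from DNA, stood at 445.4 and 513.8 CPM in the IP libraries and at 132.8 and 142.8 CPM in the inputs, and was higher (log2 fold change 1.80, SE 0.0917). Its fold was larger in value than that of TWIST1, and the difference between them was not tested.

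A list of 24 genes held kinases, phosphatases, ubiquitin ligases, deubiquitinases and a COP9 signalosome subunit that act on these proteins. Of the 24, 12 rose, 4 fell and 8 missed the threshold (median 0.37), against 25.4% higher, 25.6% lower and a median of -0.01 over all genes tested. GSK3B, the kinase that marks SNAI1 for breakdown, was higher (0.60, SE 0.102, and 0.30 with the length trend removed in the block fit). BTRC, the F-box protein that reads that mark, was lower (-1.10, SE 0.205), from 12.6 ± 1.26 CPM in the input to 5.87 ± 0.0983 CPM in the IP. FBXL14, another SNAIL ligase, was higher (1.57, SE 0.0883), and FBXO45 (0.34, SE 0.145) did not pass. LATS2, a Hippo pathway kinase that phosphorylates SNAI1, was the highest called (2.49, SE 0.0901) and COPS2, a subunit of the COP9 signalosome, the lowest (-1.98, SE 0.168).

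Other regulators of epithelial or mesenchymal state were often unmeasured. Of 23 listed, 14 had a row and 9 were tested, of which 4 rose and 1 fell (median 0.54), against the same 25.4% and 25.6% of all genes tested. SOX4 was the highest called (1.59, SE 0.185) and ETS1 the lowest (-0.60, SE 0.0965, and -0.33 with total-count scaling). PRRX1, a homeobox inducer of mesenchymal state, stood at 5.54 and 3.09 CPM in the IP libraries and at 6.22 and 5.73 CPM in the inputs and did not pass (-0.47, SE 0.317). ESRP1, an epithelial splicing regulator, had 6 and 8 counts in the IP libraries and 18 and 2 in the inputs and was not tested. GRHL2 and SCRT1 were not analysed here.

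**Figure D5:**
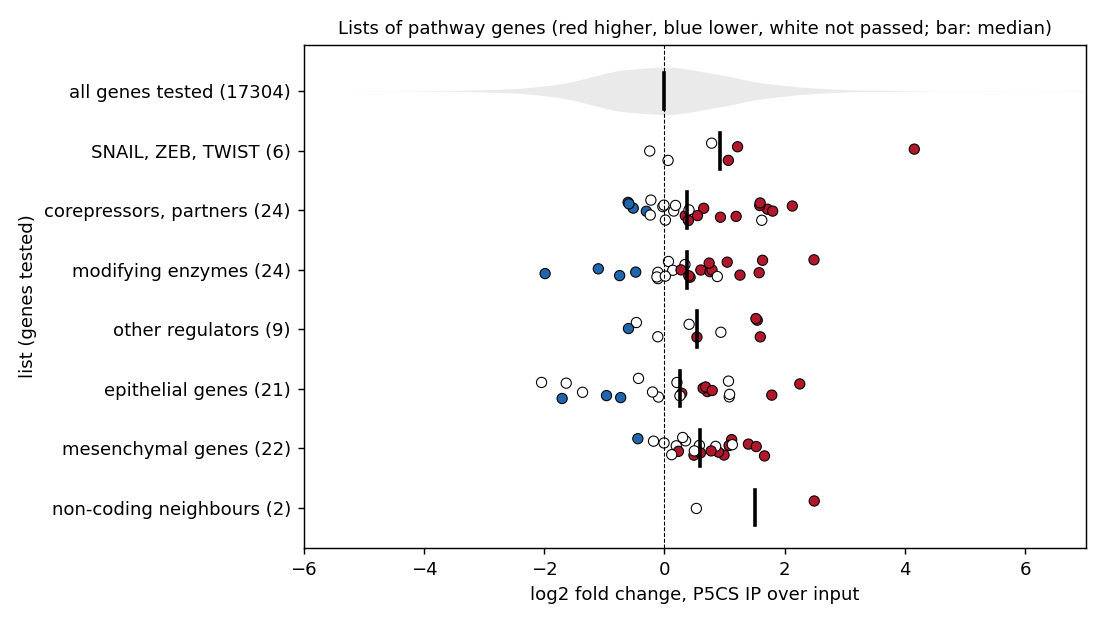
Log2 fold changes of P5CS IP over input for the 6 tested SNAIL, ZEB and TWIST genes and for the pathway lists (points: genes, red called higher, blue called lower, white not passed; black bars: medians), below the distribution of all 17304 genes tested. SNAI3 lies to the right of every listed gene, and each list has genes on both sides of 0 except the 2 non-coding genes.

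Lists of epithelial genes and of mesenchymal genes were measured as well, and the difference between the lists was not tested. The lists hold genes typical of each state, and whether these regulators act on them here was not tested. Of 21 tested epithelial genes, 7 rose, 3 fell and 11 missed the threshold (median 0.26), and of 22 tested mesenchymal genes 11 rose, 1 fell and 10 missed it (median 0.59), where 25.4% of all genes tested were called higher and 25.6% lower, with a median of -0.01. CLDN4, a tight-junction claudin, was the highest epithelial gene called (2.25, SE 0.373), F11R, a junctional adhesion molecule, the lowest (-1.70, SE 0.438, a call lost without the second input library at -1.44 with adjusted p = 0.0626, edgeR quasi-likelihood test), and KRT18 was lower (-0.96, SE 0.0732). Of the mesenchymal genes, THBS1, a matrix glycoprotein, was the highest called (1.66, SE 0.0718), FN1, fibronectin, was higher (0.99, SE 0.0857, and 0.65 with the length trend removed in the block fit), and so was CDH2, N-cadherin (0.49, SE 0.102, and 0.76 with total-count scaling). VIM, the intermediate filament vimentin, was the 1 mesenchymal gene called lower (-0.44, SE 0.0646, and -0.18 with total-count scaling). Of 6 non-coding neighbours and microRNA hosts, SNAI3-AS1 and ZEB1-AS1 were analysed, and MIR200CHG, the host of miR-200c, was not analysed here.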

How the data were processed

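The authors deposited a single table of all 4 libraries, holding raw counts and FPKM, and, per the file headers, the columns of their own comparison, which are a mean normalised signal, a log2 fold change, its standard error, a test score, and the p-value before and after adjustment. Per the submitters' processing notes, fastp 0.23.2, STAR 2.7.10a, featureCounts and DESeq2 were used with the build hg38. Neither annotation nor strand setting is given there. The deposited count columns all bear the word Cyto, absent from the labels, and were matched to the samples by replicate number and by the word input. About 86% of counts between 1 and 30 were even (85.8 to 86.4% per library), so both mates of a pair appear to have been counted, and halved counts were an alternative. The floor of 3 counts describes counting error alone, because no molecular identifiers mark independent molecules, and it is too low where both mates were counted. The design text names LACE-seq with an IgG control, whereas the titles name P5CS and input, which were followed.

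From the deposited counts, 1 repeated row was dropped and edgeR 4.0.16 in R 4.3.3 was run on all genes (filterByExpr, TMM, glmQLFit and glmQLFTest, no replicate term, 2 residual degrees of freedom), with Benjamini-Hochberg adjustment over 17304 genes. Gene model lengths were recovered from counts and FPKM, and coordinates (1-based) come from RefSeq GRCh38.p14. The fit was also run on simulated counts with set fold changes, and some of those changes were not called. Alternatives were total-count and RLE scaling, DESeq2 1.42.0, no count filter, halved counts, the replicate block, the length trend removed, and each library left out. The named genes were all members, the genes always named in each list, the highest and lowest called gene of each list, and the 2 nearest genes by distance, of which 1 is not reported here. The members and lists were chosen with earlier results of these data known.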

Additional observations from a re-analysis of the deposited data

How the results depend on the processing

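SNAI3, ZEB2 and TWIST1 were called higher in all 11 alternatives, with log2 fold changes of 3.95 to 4.42, 0.81 to 1.48 and 0.93 to 1.33. The number of members called higher was 3 or 4 in every alternative, and the fourth was TWIST2 (1.05 with total counts, 0.79 without a count filter and with halved counts, 0.84 with the replicate block, 1.01 with the length trend removed, 1.04 without the first IP library and 1.38 without the first input library). With the length trend removed in the block fit, 1 member (ZEB1, -0.45) was called lower in place of 0. The sign of ZEB1 turned with total counts (0.019) and without the first input library (range with a library left out -0.47 to 0.021), and that of SNAI1 without the second IP or the second input library (-0.28 to 0.36). SNAI1 was not tested with halved counts, which left it under the filter.

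Among the lists, the partners called lower were 4, or 0 with total counts, 3 with DESeq2, 6 with halved counts, 6 with the replicate block, 5 with the length trend removed and 2 to 4 with a library left out. The other regulators called lower were 1, or 2 with the length trend removed and 1 to 2 with a library left out. The epithelial genes called lower were 3, or 2 to 5 with a library left out. The mesenchymal genes called lower were 1, or 2 with the replicate block, 2 with the length trend removed in the block fit and 1 to 2 with a library left out. Signs turned for KDM1A (-0.074) and TCF4 (-0.39) with the length trend removed, TCF12 (0.030) and SUDS3 (0.0019) with total counts, and, with a library left out, TCF4 (-0.066 to 0.10), PCDHGB9P (-0.12 to 0.66) and the gene nearest to SNAI1 (-0.37 to 0.48), none of them called in the fit reported. Some genes not called in the fit reported were called in an alternative. For example, KDM1A (0.42) and FBXO45 (0.61) were called higher with total counts, and PRRX1 (-0.82) lower with the length trend removed. The cause of these changes was not tested. Among all genes, 5604 were called higher and 3223 lower with total counts, against 4400 and 4432, and over all alternatives 20.3 to 32.4% of the genes tested were called higher and 18.6 to 29.5% lower.

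The labels give both groups the numbers 1 and 2 but do not say that a number marks a shared culture, and with 2 numbers the libraries cannot be shown to be paired (correlation of same-numbered deviations 0.000153 over 17304 genes). With the replicate block 4 members were called higher and 0 lower. Leaving out a library leaves 1 group with 1 library, which is assumed to vary like the other group. Depth limits SNAI1 and SNAI2, with 2 to 20 counts a library.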
